A study of Mus musculus with 8 samples.

Results

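NF-κB is a family of transcription factors that act as dimers. Levels of 9 NF-κB genes were compared across mouse mammary tumour lines: the subunit genes Nfkb1, Nfkb2, Rel, Rela and Relb, the feedback genes Nfkbia, Tnfaip3 and Birc3, and the ligand gene Tnf. They were chosen by symbol, as the rows of the count matrix whose Entrez gene identifier maps to those names, and make up 9 of the 27179 genes counted. The choice used no measured value, although earlier results of these data were known when it was made. RNA-seq libraries came from the lines 4T1, 4T1.2, 67NR and 66cl4, 2 for each line and 8 in all. The labels spell 66cl4 as 66c14, and the spelling of the study is used here. The lines are isogenic, from a BALB/c mammary tumour, and differ in metastatic behaviour. The sublines 4T1 and 4T1.2 are metastatic, 4T1.2 spreads to bone, and the study classes 66cl4 and 67NR as of low metastatic potential. Cells were grown in culture in αMEM with serum, without a treatment, gene edit or added stimulus named for these libraries in the labels or methods. Each group thus stands for 1 cell line as cultured. Total counts per library ran from 37159840 to 66269681. All 9 genes passed the filter on low counts and were among the 13926 genes tested.

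NF-κB dimers are held in the cytoplasm of resting cells by IκB proteins, such as IκBα, the product of Nfkbia. In the canonical pathway, receptors of the TNF, interleukin-1 and Toll families activate the IKK kinases, IκBα is degraded, and dimers of RELA or c-REL with p50 enter the nucleus. In the noncanonical pathway the kinase NIK drives the processing of p100, the product of Nfkb2, to p52, which pairs with RELB. Among the genes that these dimers switch on are their own inhibitors, Nfkbia and Tnfaip3, the ubiquitin ligase gene Birc3, the subunit genes Nfkb2 and Relb, and Tnf, so these transcripts are widely read as a trace of the pathway. A transcript level shows neither the amount of a protein nor its place in the cell.

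Markers of the line and of other cell types were checked first. Of 6 epithelial markers, Krt8, a keratin of simple epithelia, had 16981 counts or more in every library. Krt18 had 5067 counts or more in each library of 4T1.2, 4T1 and 66cl4, but 30 to 70 in those of 67NR. Krt14 had at most 42 counts in a library and Krt5 at most 9. Epcam and Cdh1, genes of epithelial cell adhesion, had 629 counts or more in each library of 4T1.2 and 4T1 and at most 7 in those of 66cl4 and 67NR, so these defining epithelial markers were nearly absent from 66cl4 and 67NR. Of 10 leucocyte markers, 3 to 5 exceeded 3 counts in a library. Adgre1, Tyrobp and Cd3e had no count anywhere, and Ptprc had at most 2. Summed over that list, the level was 4.14 to 5.82 CPM in 4T1.2 and 4T1, most of it Cd68. In 66cl4 and 67NR it was 20.2 to 26.7 CPM, most of it Lyz2. CPM are counts per 1000000 of the effective library size. Endothelial markers summed to 0.334 to 3.7 CPM and fibroblast markers, mostly Pdgfra, to 90.6 to 170 CPM. In bulk RNA, fewer cells that express a gene and less RNA of it per cell cannot be told apart.

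Promoter sequence was available for 7 of the 9 genes, all but Nfkb1 and Relb, as RefSeq windows from 250 bases before the start site to 50 after it (GRCm38.p6). The κB consensus, the 10-base motif that NF-κB dimers bind, was searched on both strands. Overlapping matches, as in the Nfkb2 and Rel windows, are capitalised as a single run. Nfkb2, Rel, Nfkbia and Tnfaip3 each held a match in their windows, and the windows of Rela, Birc3 and Tnf held none. Over all genes with a window, 5.14% (1388 of 27025) held a match. A gene with several start sites has several windows, and the first is shown. The 60 bases below are shown because they set the genes with and without a match side by side. Capitals mark matches to the consensus, and all sequences run 5′ to 3′ in the direction of the gene, ending at the base before the start site except for Rel, which ends 61 bases before it.
Nfkb2, chr19:46304677-46304736, plus strand: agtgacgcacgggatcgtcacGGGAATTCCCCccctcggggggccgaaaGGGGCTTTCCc
Nfkbia, chr12:55492648-55492707, minus strand: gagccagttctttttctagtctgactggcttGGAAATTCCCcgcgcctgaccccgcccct
Tnfaip3, chr10:19015411-19015470, minus strand: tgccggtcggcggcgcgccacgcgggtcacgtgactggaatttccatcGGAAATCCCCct
Rel, chr11:23771030-23771089, minus strand: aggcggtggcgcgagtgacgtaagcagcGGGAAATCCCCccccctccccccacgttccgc
Rela, chr19:5637481-5637540, plus strand: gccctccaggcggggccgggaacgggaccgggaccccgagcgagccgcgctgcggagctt
Birc3, chr9:7873171-7873230, minus strand: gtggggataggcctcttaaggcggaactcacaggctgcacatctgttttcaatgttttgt
A match is a description of the letters, not a site or a cause. A window without one says only that these letters are not in it.

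The comparison of 4T1 and 4T1.2 with 66cl4 and 67NR asks how the metastatic lines differ from those of low metastatic potential. Nfkbia, Tnfaip3, Birc3 and Tnf were higher in 4T1 and 4T1.2. Nfkb1, Nfkb2, Rel and Relb were lower, and Rela was not called. A gene was called where its adjusted p was under 0.05 (edgeR's quasi-likelihood F-test, Benjamini-Hochberg adjusted over the genes tested). So 4 of the 9 were higher, where 38.1% of all genes tested were called higher, and 4 were lower, where 38.6% were called lower. Of the 4 higher, Tnf passed the filter on low counts only through 4T1, so that its call was conditioned on the filter. Libraries of the pooled groups did not overlap for 5 of the 9, Nfkb1, Nfkb2, Tnfaip3, Birc3 and Tnf, against 55.5% of all genes. These shares lie near the background of the lines, which differ at most genes. The median log2 fold change was 0.00 over the 9 genes and -0.01 over all genes. Both libraries of each line enter every value here (n = 2), and ± is the SD over them. The methods call them biological replicates without naming separate cultures. A p sets a difference against the spread between replicate libraries of a line, not against that between lines alike in metastatic behaviour. The comparisons share libraries and are not independent of each other.

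**Figure D1:**
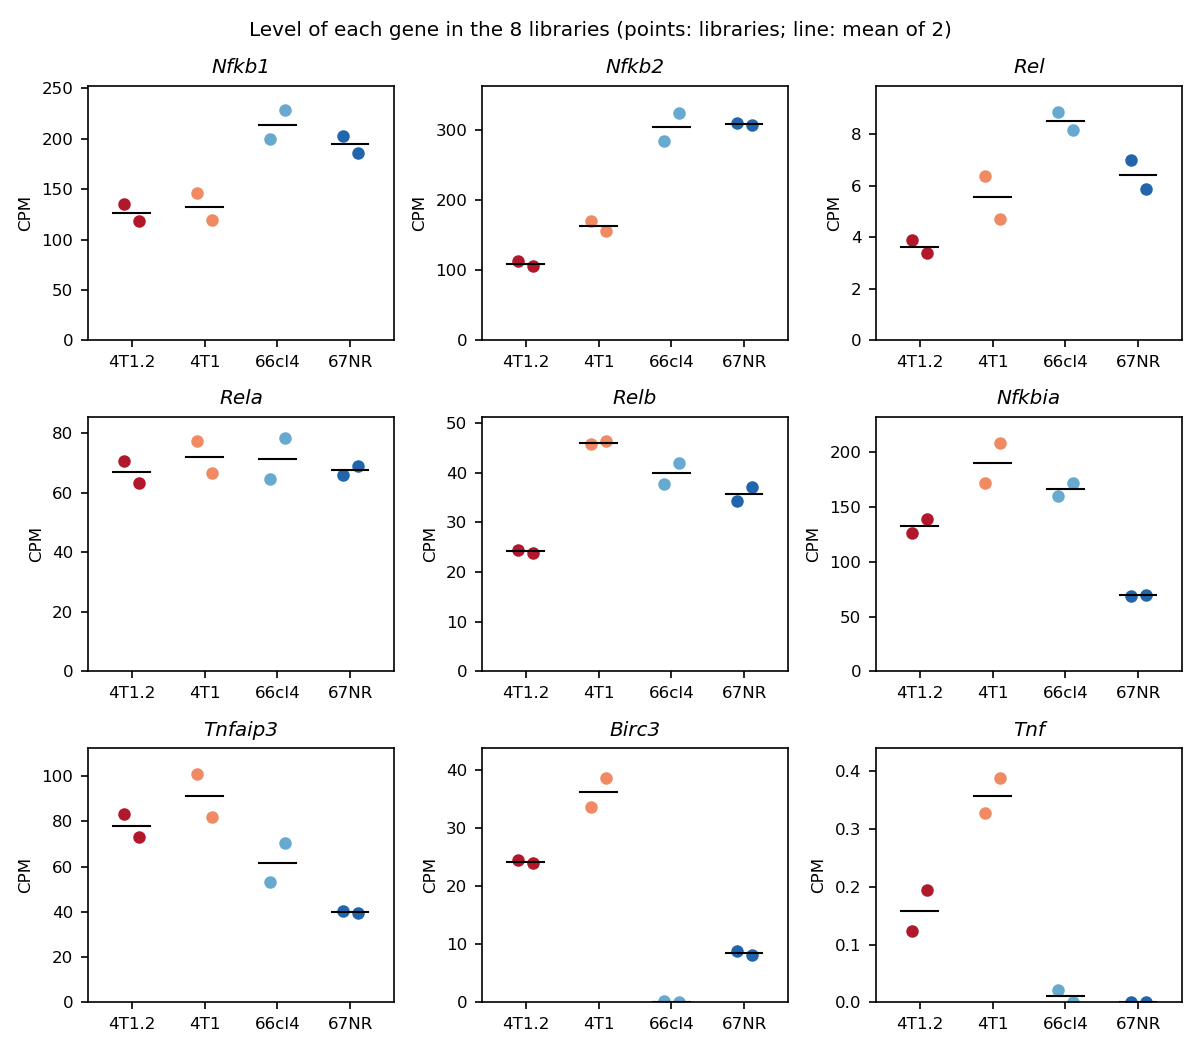
Level in CPM (linear axis from 0) of each of the 9 genes in the 8 libraries, with the mean of the 2 libraries of each line as a bar. Rela lay between 63.4 and 78.4 in all libraries, Nfkb2 was lowest in 4T1.2, and Birc3 was at 0.177 or less in 66cl4.

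Rela (Entrez 19697, chr19:5637442-5648134 on GRCm38, the build of all positions given) encodes p65, the main activating partner of the canonical dimer. It was the steadiest of the 9. Its level was 70.7 and 63.4 CPM for 4T1.2, 77.3 and 66.5 for 4T1, 64.6 and 78.4 for 66cl4, and 66.1 and 69.0 for 67NR. The libraries of all 4 lines overlapped in that range. No comparison of Rela was called, with adjusted p between 0.512 and 0.996 over the 7 comparisons. The log2 fold change of 4T1 and 4T1.2 against 66cl4 and 67NR was 0.00, with a 95% interval of -0.19 to 0.19. Between single lines the widest bounds reached were -0.37 and 0.36, so that larger differences lie outside the intervals.

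Nfkb1 (Entrez 18033, chr3:135584655-135691969) encodes p105, the precursor of p50. It was lower in 4T1.2 and 4T1. CPM values were 135 and 118 for 4T1.2, 146 and 119 for 4T1, 200 and 228 for 66cl4, and 203 and 186 for 67NR. Each library of 66cl4 and 67NR lay above every library of 4T1 and 4T1.2. The pooled log2 fold change was -0.65 (SE 0.09, adjusted p = 6.87e-05), and each of the 4 comparisons across the groups was called, with values from -0.75 to -0.55. The differences between 4T1.2 and 4T1 (-0.07, adjusted p = 0.77) and between 66cl4 and 67NR (0.14, adjusted p = 0.388) were not called. Over the 668 genes of chromosome 3 tested, the median of the pooled comparison lay 0.33 below that of all genes (-0.33 on the log2 scale). Its part in the result was not tested. By pair, the chromosome's median relative to all genes was -0.61 in 4T1.2 against 67NR and -0.54 in 4T1 against 67NR. Nfkb1 had -0.62 and -0.55 there. The median was -0.09 in 4T1.2 against 66cl4 and -0.01 in 4T1 against 66cl4, beside -0.75 and -0.69 for Nfkb1. In 66cl4 against 67NR it was -0.59, beside 0.14 for Nfkb1, and in 4T1.2 against 4T1 it was -0.05, beside -0.07. Pooled medians of the other members' chromosomes, relative to all genes, were also read. They were -0.14 for chromosome 19 (Nfkb2 and Rela), 0.32 for chromosome 11 (Rel) and -0.20 for chromosome 7 (Relb). The median was 0.25 for chromosome 12 (Nfkbia), 0.11 for chromosome 10 (Tnfaip3), 0.07 for chromosome 9 (Birc3) and -0.09 for chromosome 17 (Tnf). The part of these medians in the results was not tested.

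Nfkb2 (Entrez 18034, chr19:46300994-46312400) encodes p100, which both restrains RELB and gives rise to p52. Of the subunit genes it differed most between the pooled groups. The libraries gave 113 and 106 CPM for 4T1.2, 171 and 156 for 4T1, 285 and 325 for 66cl4, and 310 and 307 for 67NR. The lowest library of 66cl4 and 67NR stood well above the highest of 4T1. The pooled log2 fold change was -1.19 (SE 0.07, adjusted p = 1.17e-07). Within the first group 4T1.2 was lower than 4T1 by a log2 fold change of -0.58 (SE 0.10, adjusted p = 0.00268), a call that held under every alternative run. The lines 66cl4 and 67NR were not told apart (-0.02, adjusted p = 0.898). The 4 cross comparisons ran from -1.49 for 4T1.2 against 67NR to -0.90 for 4T1 against 66cl4, all called. Antisense genes, Psd and AC114539.1, together overlap 18.1% of the exon bases of Nfkb2, and the strand setting of the counting is not given in the sources used here. Psd itself had 613 to 1490 counts, equal to 6.4% to 14.5% of the Nfkb2 count in the same library.

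Rel (Entrez 19696, chr11:23736847-23770969) encodes c-REL, a subunit best known from lymphocytes. Its levels were the lowest of the subunit genes, also per base of exon. They were 3.89 and 3.38 CPM for 4T1.2, 6.40 and 4.70 for 4T1, 8.87 and 8.16 for 66cl4, and 7.01 and 5.86 for 67NR. The 4T1 and 67NR libraries overlapped, while the 4T1.2 libraries were below all others. The pooled log2 fold change was -0.71 (SE 0.13, adjusted p = 0.000521). Rel was lower in 4T1.2 than in 67NR (-0.82, adjusted p = 0.00284) and 66cl4 (-1.23, adjusted p = 0.000194). The difference between 4T1 and 67NR was not called (-0.20, adjusted p = 0.34), nor was that between 66cl4 and 67NR (0.41, adjusted p = 0.0849), except with a replicate block (adjusted p = 0.0369) and without 4T1 replicate 1 (adjusted p = 0.0377) or 4T1 replicate 2 (adjusted p = 0.0455). Against 4T1, the value of 4T1.2 was -0.62 (SE 0.18, adjusted p = 0.0417). That call was lost under 9 alternatives, among them limma-voom (adjusted p = 0.0538) and the omission of 4T1 replicate 1 (-0.37, adjusted p = 0.195). The difference of 4T1 from 66cl4 (-0.61, adjusted p = 0.0108) was not called without 4T1 replicate 2 (adjusted p = 0.0708) or without 66cl4 replicate 1 (adjusted p = 0.0569).

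Relb (Entrez 19698, chr7:19606217-19629438) encodes the partner of p52 in the noncanonical pathway. It stood apart in 4T1.2. Values were 24.5 and 23.9 CPM for 4T1.2, 45.7 and 46.3 for 4T1, 37.7 and 42.0 for 66cl4, and 34.4 and 37.2 for 67NR. Both 4T1.2 libraries were below the other 6, and both 4T1 libraries above them. In 4T1.2 Relb was lower than in 4T1 by a log2 fold change of -0.93 (SE 0.10, adjusted p = 0.000183), with values of -0.94 to -0.91 when any 1 library was left out. It was also lower than in 67NR (-0.57, adjusted p = 0.000497) and 66cl4 (-0.72, adjusted p = 9.67e-05). By contrast 4T1 was above 67NR (0.36, adjusted p = 0.00696), a call lost without 67NR replicate 1 (adjusted p = 0.0656). Its difference from 66cl4 was not called (0.21, adjusted p = 0.0714), except with at least 10 counts required in every library (adjusted p = 0.0432) or no removal by annotation (adjusted p = 0.0452). The pooled value of -0.18 (SE 0.07, adjusted p = 0.0335) thus joined lines on opposite sides, and it was lost when no filter was applied (adjusted p = 0.0576) and in 5 of the 8 omissions of a library (adjusted p 0.0517 to 0.127).

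**Figure D2:**
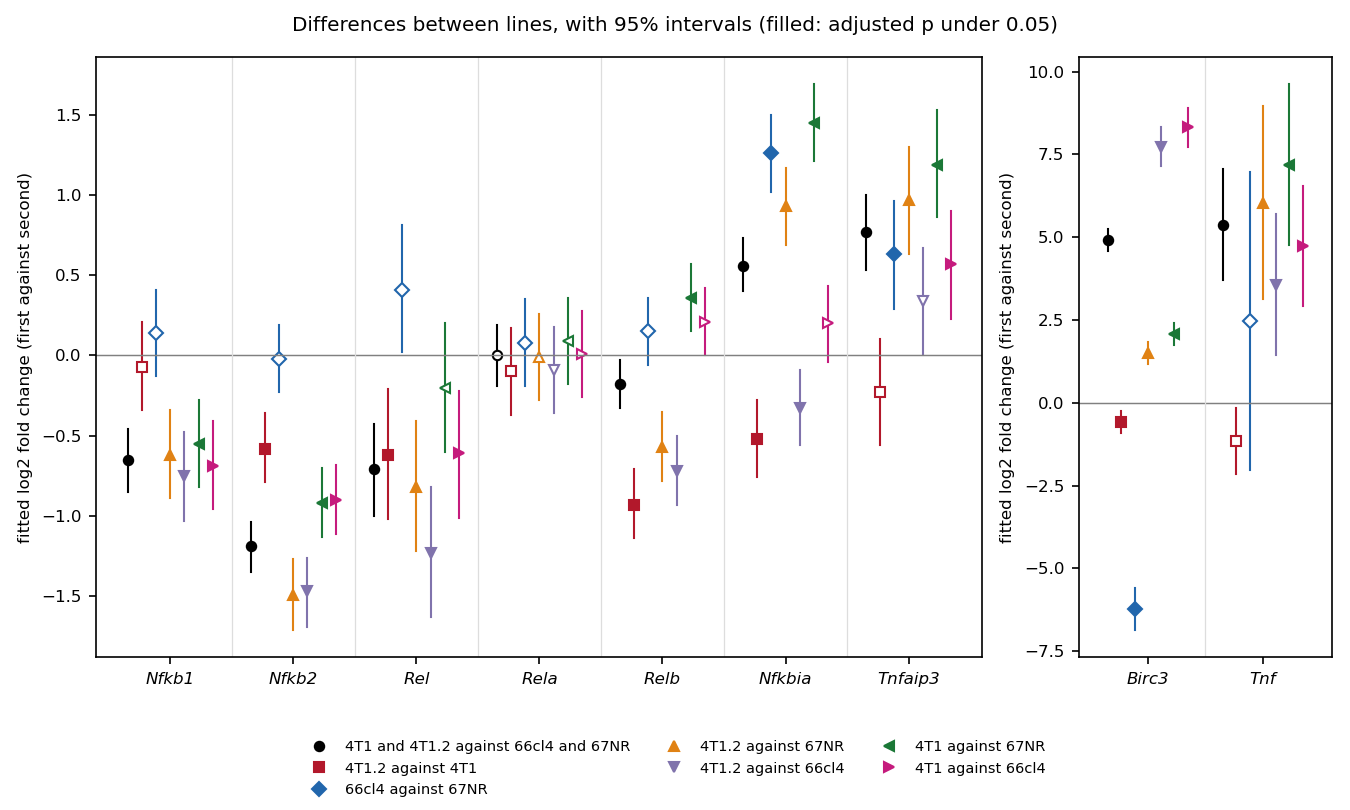
Fitted log2 fold change (vertical axis) of each gene in the 7 comparisons, with bars for the 95% interval of each value taken singly; filled symbols have an adjusted p under 0.05, and Birc3 and Tnf have an axis of their own. Rela is open throughout, Nfkb2 is lower in 4T1.2 and 4T1, and Birc3 reaches 8.32 in 4T1 against 66cl4.

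The feedback genes followed other orders. Nfkbia (Entrez 18035, chr12:55489409-55492647), the gene of IκBα, is induced by NF-κB and ends its response. It had 126 and 139 CPM for 4T1.2, 172 and 208 for 4T1, 160 and 172 for 66cl4, and 69.1 and 69.6 for 67NR. The 67NR libraries were the lowest by a wide gap, and those of 4T1 and 66cl4 were adjacent. Nfkbia was higher in each other line than in 67NR, with log2 fold changes of 1.45 for 4T1 (adjusted p = 1.38e-06), 1.26 for 66cl4 (SE 0.11, adjusted p = 1.56e-05) and 0.93 for 4T1.2 (adjusted p = 3.41e-05). The pooled value was 0.56 (SE 0.07, adjusted p = 7.04e-05), with libraries that overlapped. Relative to 4T1, 4T1.2 was lower (-0.52, SE 0.11, adjusted p = 0.00774), which was lost without 4T1.2 replicate 1 (adjusted p = 0.0736). Relative to 66cl4 it was lower by a smaller amount (-0.33, SE 0.11, adjusted p = 0.0196), lost without 4T1.2 replicate 1 (adjusted p = 0.148) or 66cl4 replicate 2 (adjusted p = 0.1). The lines 4T1 and 66cl4 were not told apart (0.20, adjusted p = 0.123), except without 4T1 replicate 1 (0.32, adjusted p = 0.0142).

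Tnfaip3 (Entrez 21929, chr10:19000910-19015410) encodes A20, a ubiquitin-editing enzyme that shuts down signalling from TNF and Toll-like receptors. Its libraries gave 83.1 and 73.0 CPM for 4T1.2, 101 and 81.8 for 4T1, 53.0 and 70.6 for 66cl4, and 40.4 and 39.5 for 67NR. All libraries of 4T1 and 4T1.2 were above those of 66cl4, which in turn were above those of 67NR. The pooled log2 fold change was 0.77 (SE 0.11, adjusted p = 8.93e-05). Against 67NR, 4T1 was higher by 1.19 (adjusted p = 6.67e-05), 4T1.2 by 0.97 (adjusted p = 0.00028) and 66cl4 by 0.63 (SE 0.15, adjusted p = 0.00726). The last of these was lost without 66cl4 replicate 2 (adjusted p = 0.062) or 67NR replicate 2 (adjusted p = 0.0575). The value of 4T1 against 66cl4 was 0.57 (adjusted p = 0.00663, and 0.0563 without 66cl4 replicate 1). That of 4T1.2 against 66cl4, 0.34 (SE 0.15, adjusted p = 0.0659), was called under 5 alternatives, with DESeq2 among them (adjusted p = 0.047). Between 4T1.2 and 4T1 the value was -0.23 (adjusted p = 0.335).

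Birc3 (Entrez 11796, chr9:7847468-7873205) encodes cIAP2, a ubiquitin ligase that acts at TNF receptors and in the complex that degrades NIK. It was nearly absent from 66cl4 and was the member with the largest called difference. Counts were 1390 and 1357 for 4T1.2, 2060 and 1793 for 4T1, 8 and 2 for 66cl4, and 324 and 508 for 67NR. As CPM these were 24.5 and 23.9, 33.7 and 38.6, 0.177 and 0.0446, and 8.83 and 8.22, so no library of a line overlapped with another line. All 6 pairs of lines were called, in the order 4T1, 4T1.2, 67NR and 66cl4. The 66cl4 level was below that of 67NR by a log2 fold change of -6.23 (SE 0.28, adjusted p = 3.21e-07), or 76.2-fold by the summed counts (832 against 10 counts, 95% exact counting interval 41.2 to 160). The ratio to 66cl4 was 218 for 4T1.2 (2747 counts, interval 118 to 455) and 323 for 4T1 (3853 counts, interval 176 to 674). These intervals cover counting error only. With 1 library of 66cl4 left out, the log2 fold change of 4T1 against 66cl4 moved from 8.32 to 7.66 without replicate 2 and to 9.59 without replicate 1. That of 66cl4 against 67NR moved to -5.57 and -7.50. Without the same libraries the pooled value of 4.91 (SE 0.15, adjusted p = 1.18e-09) became 4.58 and 5.55. Relative to 67NR, Birc3 was higher in 4T1 by 2.09 (SE 0.15, adjusted p = 1.11e-06) and in 4T1.2 by 1.51 (SE 0.15, adjusted p = 1.15e-05). The smallest difference, 4T1.2 below 4T1 (-0.58, SE 0.14, adjusted p = 0.0185), was lost without either 4T1.2 library (adjusted p = 0.098 without replicate 1 and 0.106 without replicate 2) or without 4T1 replicate 2 (adjusted p = 0.0598).

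Birc2, which encodes the paralogue cIAP1, lies next to Birc3 at chr9:7818226-7837131. It was read at 42.8 ± 1 CPM for 4T1.2, 46.4 ± 0.865 for 4T1, 52.6 ± 0.701 for 66cl4, and 45.4 ± 1.54 for 67NR. Its pooled difference was not called (-0.13, adjusted p = 0.0664). In reads per base of exon, Birc3 stood at 0.627 and 0.634 of Birc2 for 4T1.2 and at 0.821 and 0.917 for 4T1. The same ratio was 0.223 and 0.198 in 67NR, and 0.00371 and 0.000956 in 66cl4. Of all stretches of 75 bases in the exons of Birc3, 3.88% also occur in another gene, Birc2 or a predicted gene. Traf1, which encodes an adaptor that binds the cIAP proteins, was also lowest in 66cl4. It had 52.0 ± 0.128 CPM for 4T1.2, 59.7 ± 0.936 for 4T1, 3.52 ± 0.888 for 66cl4, and 31.0 ± 1.15 for 67NR. Its log2 fold change in 66cl4 against 67NR was -3.14 (SE 0.15, adjusted p = 4.33e-07).

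**Figure D3:**
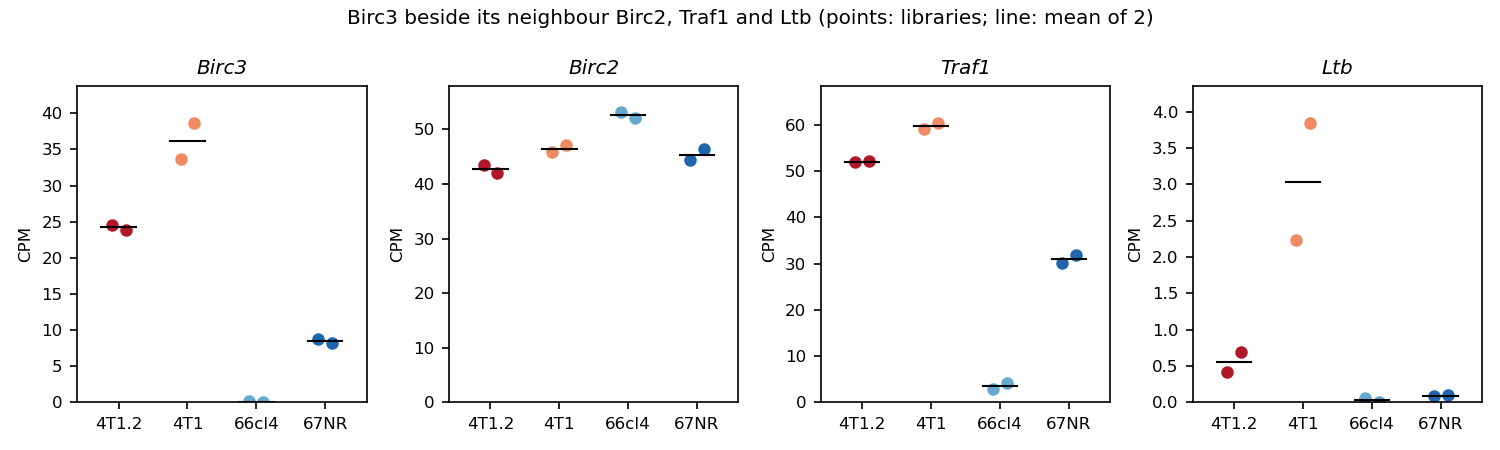
Level in CPM (linear axes from 0) of Birc3, its neighbour Birc2, Traf1 and Ltb in the 8 libraries, with the mean of each line as a bar. Birc2 lay between 42.1 and 53.1 in every library, while Birc3 and Traf1 were lowest in 66cl4 and Ltb was highest in 4T1.

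Tnf (Entrez 21926, chr17:35199367-35202007) encodes the ligand that activates the canonical pathway through TNFR1. It was sparse everywhere. Counts were 7 and 11 for 4T1.2, 20 and 18 for 4T1, 1 and 0 for 66cl4, and 0 for both libraries of 67NR. At 0.123 to 0.388 CPM in 4T1.2 and 4T1, the gene was read in all 4 of those libraries and at most by 1 count elsewhere. Tnf passed the filter on low counts only through 4T1, where it was highest. Its calls, and its value for 4T1.2 against 4T1, are therefore conditioned on that filter and support nothing further. The pooled comparison was called (adjusted p = 0.00014), and so were all 4 cross comparisons (adjusted p 0.000323 to 0.00814). By summed counts, Tnf was 14.3 times the 66cl4 level in 4T1.2 (18 against 1 counts, interval 2.26 to 595) and 31.9 times in 4T1 (38 counts, interval 5.39 to 1290). Against 67NR, taken at 3 counts a library, the bound was at least 2.43-fold higher for 4T1.2 and at least 5.49-fold higher for 4T1. The call of 4T1.2 against 66cl4 was lost without 66cl4 replicate 2 (adjusted p = 0.0515). The value for 4T1.2 relative to 4T1, -1.15 (SE 0.44), was not called (adjusted p = 0.11). The difference of 66cl4 from 67NR was not detectable at this depth. Leucocytes are a main source of Tnf in tissue. Of the leucocyte list, Cd68 was higher in 4T1 and 4T1.2 (0.97, SE 0.12, adjusted p = 3.71e-05). Itgam was higher too (2.04, SE 0.52, adjusted p = 0.00509), on at most 16 counts in a library and with libraries that overlapped. Lyz2 (-9.69), Laptm5 (-3.06) and Cd79a (-1.52) were called lower there, Cd79a with libraries that overlapped. Itgam, Lyz2 and Laptm5 passed the filter on low counts only through lines where they were high. The summed level given above was lower there through Lyz2. The part of these markers in the Tnf result was not tested.

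Ltb, the lymphotoxin gene beside Tnf at chr17:35194507-35196305, had 24 and 39 counts for 4T1.2, 136 and 178 for 4T1, 3 and 0 for 66cl4, and 3 and 6 for 67NR. In 4T1.2 it was below 4T1, with a log2 fold change of -2.43 (SE 0.37, adjusted p = 0.00164). Lta, on the other side of Tnf, did not follow it, with mean levels of 0.167 CPM for 4T1.2, 0.0732 for 4T1, 0.211 for 66cl4, and 0.195 for 67NR.

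Pairs of lines divided the 9 genes differently. In 4T1.2 against 4T1, Nfkb2, Rel, Relb, Nfkbia and Birc3 were lower, 5 of 9 where 9.92% of all genes were called lower. None was higher by edgeR's test, where 9.37% of all genes were; the count of higher genes was also 0 at an unadjusted p under 0.05 and by DESeq2 and limma-voom. All 9 fitted values were negative, with a median of -0.58. Among them, that of Tnf was conditioned on the filter on low counts, which it passed only through 4T1. The count of 5 fell to 2 without 4T1.2 replicate 1 and to 3 without 4T1.2 replicate 2, and to 4 on leaving out any of the other libraries. Nfkb2 and Relb were called in each of those fits. In 66cl4 against 67NR, Nfkbia and Tnfaip3 were higher, 2 of 9 against a background of 22.2%, and Birc3 was lower, 1 of 9 against 22.4%.

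Across the groups the counts of lower genes lay closer to the background than in 4T1.2 against 4T1. In 4T1.2 against 67NR, 4 were higher (33.7% of all genes) and 4 lower (34.1%). In 4T1.2 against 66cl4, 2 were higher (34.3%) and 5 lower (34.5%). In 4T1 against 67NR, 5 were higher (33.9%) and 2 lower (34.4%), and in 4T1 against 66cl4, 3 were higher (34.9%) and 3 lower (35.2%). Birc3 and Tnf were higher and Nfkb1 and Nfkb2 lower in each of these comparisons.

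Ratios within a library do not depend on library size, and per base of counted exon they allow genes to be compared. Nfkb2 stood at 1.32 and 1.37 times Rela for 4T1.2, 1.82 and 1.93 for 4T1, 3.63 and 3.41 for 66cl4, and 3.86 and 3.66 for 67NR. Thus the p100 transcript outnumbered that of p65 in every library, least in 4T1.2. Nfkb1 was at 1.26 and 1.23 times Rela for 4T1.2, 1.24 and 1.18 for 4T1, 2.04 and 1.91 for 66cl4, and 2.02 and 1.77 for 67NR, with no overlap between the pooled groups. Relb was at 0.427 and 0.463 of Rela in 4T1.2 and between 0.640 and 0.855 in the other lines. Rel never exceeded 0.144 of Rela.

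The inhibitor transcript was set against the subunits in the same way. Nfkbia stood at 2.31 and 2.73 times Nfkb2 for 4T1.2, 2.10 and 2.77 for 4T1, 1.17 and 1.10 for 66cl4, and 0.464 and 0.473 for 67NR. Accordingly the transcript of IκBα was above that of p100 in 3 lines and below it in 67NR. Relative to Rela it was at 1.79 and 1.73 in 67NR and between 3.05 and 5.35 in the other lines. Tnfaip3 was at 0.375 to 0.525 of Nfkb2 for 4T1.2 and 4T1, 0.133 and 0.156 for 66cl4, and 0.0933 and 0.0923 for 67NR. On the RPKM scale (CPM per kilobase of counted exon), Nfkbia was the highest of the 9 in the 6 libraries of 4T1.2, 4T1 and 66cl4, at 79.6 to 132, and Nfkb2 in both of 67NR, at 94.2 and 93.3. Tnf was the lowest of the 9 in every library, with no count in 3 of them.

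**Figure D4:**
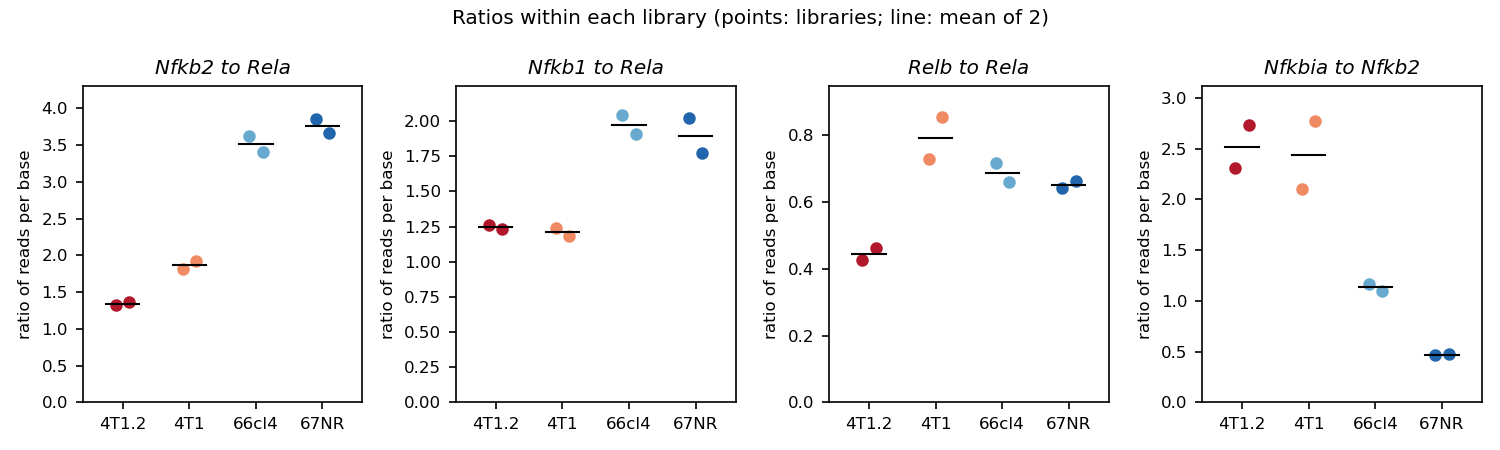
Ratio of reads per base of exon between pairs of genes within each library (linear axes from 0), with the mean of each line as a bar. Nfkb2 to Rela was 1.32 to 1.93 in 4T1.2 and 4T1 and 3.41 to 3.86 in 66cl4 and 67NR, and Nfkbia to Nfkb2 was lowest in 67NR.

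Likeness of pattern was measured as the root mean square difference of centred log2 CPM over the 8 libraries, as a description over libraries that share their lines. Among the 9, the closest pair was Nfkb1 and Rel, 0.232 apart, followed by Nfkb2 and Rel at 0.308, Rela and Relb at 0.315, and Nfkbia and Tnfaip3 at 0.327. Nfkb2 was 0.994 from Nfkbia and 1.02 from Tnfaip3. A κB match stands in the windows of all 3 of these genes, and its relation to their patterns was not tested. Line means ranged over more than 1 on the log2 scale for Nfkb2, Rel, Nfkbia, Tnfaip3, Birc3 and Tnf. For these only tested genes with such a range were searched, and for Nfkb1, Rela and Relb all tested genes. Poldip3 was nearest to Nfkb1 (0.0345), Scd1 to Nfkb2 (0.0777), Pcnx to Rel (0.105), Ccdc97 to Rela (0.0487), Man1a to Relb (0.112), Tm6sf1 to Nfkbia (0.142) and Erfe to Tnfaip3 (0.102). The next nearest were Elac1 (0.0546), Ctns (0.0808), Lrrc8c (0.108), Hnrnpm (0.0489), Tle4 (0.113), Frk (0.15) and Traf3ip2 (0.121), in the same order. Birc3 had no near neighbour, Piwil4 (0.785) and Fggy (0.866) being the closest, while Tnf was nearest to the sparse genes Gpd1 (0.228) and Cstdc2 (0.237).

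Other genes of the pathway were read by role in the comparison of 4T1 and 4T1.2 with 66cl4 and 67NR. In the remaining IκB family all 5 genes were called, 4 higher (38.1% of all genes) and 1 lower (38.6%), with a median log2 fold change of 0.90. Nfkbib and Nfkbie, which hold dimers in the cytoplasm as IκBα does, were higher by 0.69 (SE 0.09, adjusted p = 4.65e-05) and 0.90 (SE 0.07, adjusted p = 1.57e-06). Nfkbie stood at 40.1 ± 1.13 CPM for 4T1.2, 75.4 ± 2.24 for 4T1, 36.4 ± 4.33 for 66cl4, and 23.9 ± 0.337 for 67NR. Bcl3, a nuclear cofactor of p50 and p52, was higher by 1.31 (SE 0.16, adjusted p = 3.90e-05) and Nfkbid by 1.00 (SE 0.23, adjusted p = 0.00294). Nfkbiz, a nuclear member, was lower (-1.02, SE 0.13, adjusted p = 6.22e-05), at 23.8 ± 3 CPM for 4T1.2, 19.7 ± 6.13 for 4T1, 57.7 ± 4.95 for 66cl4, and 33.3 ± 2.71 for 67NR.

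Of the 6 kinase genes, Chuk and Ikbkg were lower (38.6% of all genes) and Ikbke was higher (38.1%). Chuk, the gene of IKKα, had 47.5 ± 1.33 CPM for 4T1.2, 53.7 ± 5.58 for 4T1, 119 ± 4.41 for 66cl4, and 216 ± 0.0115 for 67NR (log2 fold change -1.67, SE 0.07, adjusted p = 7.89e-09). Ikbkg, the gene of the regulatory subunit NEMO, had 43.5 ± 0.455 CPM for 4T1.2, 34.1 ± 0.793 for 4T1, 160 ± 3.65 for 66cl4, and 125 ± 1.19 for 67NR (-1.88, SE 0.06, adjusted p = 1.01e-09). Ikbke, the gene of a related kinase, was higher by 0.24 (SE 0.08, adjusted p = 0.0158). Ikbkb (-0.15, adjusted p = 0.0686), Map3k14, the gene of NIK (0.03, adjusted p = 0.888), and Tbk1 (-0.18, adjusted p = 0.0552) were not called. The count of 3 called became 5 without 4T1 replicate 1 and 2 without 66cl4 replicate 2.

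Among 22 adaptors and ubiquitin enzymes, 8 were higher (38.1% of all genes) and 7 lower (38.6%), with a median of 0.01, so that these counts were near the background. The highest were Traf1 (2.42, SE 0.10, adjusted p = 8.40e-09), Otulin (0.81, SE 0.08, adjusted p = 5.47e-06), which trims linear ubiquitin chains, and Traf3 (0.59, SE 0.11, adjusted p = 0.000792), an adaptor in the complex that degrades NIK. The lowest were Cyld, a deubiquitinase that restrains the pathway (-0.82, SE 0.06, adjusted p = 4.56e-07), and the genes of linear ubiquitin assembly Sharpin (-0.66, SE 0.07, adjusted p = 1.33e-05) and Rnf31 (-0.48, SE 0.08, adjusted p = 0.000425).

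Of the 8 other ligand genes of the TNF superfamily 6 were tested, with 4 higher (38.1% of all genes) and 1 lower (38.6%) and a median of 0.79. Ltb (4.48, SE 0.46, adjusted p = 1.05e-05), Tnfsf10 (1.70, SE 0.12, adjusted p = 6.25e-07) and Tnfsf13b (1.22, SE 0.40, adjusted p = 0.0177) were highest, and Tnfsf12 was lower (-1.68, SE 0.49, adjusted p = 0.0103). Tnfsf12 and Tnfsf13b had at most 18 counts in a library. Ltb, Tnfsf12 and Tnfsf13b passed the filter on low counts only through lines where they were high, so their calls are conditioned on it. With DESeq2, 3 of the ligands were called in place of 5.

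Of 11 receptor genes 10 were tested, with 5 higher (38.1% of all genes) and 2 lower (38.6%) and a median of 0.52. Cd40 was read at 1.47 ± 0.164 CPM for 4T1.2 and 0.851 ± 0.0456 for 4T1 and had no count in 66cl4 or 67NR. It was at least 22.1-fold higher than in 66cl4 for 4T1.2 and at least 12.8-fold higher for 4T1, taking 3 counts a library as the limit. Tnfrsf13c, with 10 to 17 counts in a library of 4T1.2 and 4T1 and at most 4 elsewhere, followed at 3.29 (SE 0.64, adjusted p = 0.00098). Cd40 and Tnfrsf13c passed the filter on low counts only through 4T1.2 and 4T1, so their calls are conditioned on it. Il1r1, the interleukin-1 receptor, had 106 ± 5.82 CPM for 4T1.2, 114 ± 8.03 for 4T1, 20.5 ± 0.4 for 66cl4, and 7.98 ± 1.48 for 67NR (3.11, SE 0.09, adjusted p = 8.37e-10). Tnfrsf1a, the gene of TNFR1, was lower (-0.80, SE 0.06, adjusted p = 6.46e-07), as was Tnfrsf1b (-0.41, SE 0.06, adjusted p = 0.000125), whose libraries overlapped.

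Target genes moved both ways. Of 24 listed 21 were tested, with 11 higher (38.1% of all genes) and 8 lower (38.6%) and a median of 0.38. The chemokine gene Ccl20 had 100 to 553 counts in a library of 4T1.2 and 4T1 and at most 1 elsewhere, a ratio of 522 by summed counts (1224 against 2 counts, interval 144 to 4320). Ccl20 and Csf2, both among the 11 higher, passed the filter on low counts only through 4T1.2 and 4T1, so their calls are conditioned on it. Mmp9, a secreted protease, was higher by 7.77 (SE 0.13, adjusted p = 2.07e-11) and the adhesion molecule Icam1 by 5.16 (SE 0.15, adjusted p = 6.76e-10). Gadd45b, a stress-response gene, was lower (-2.37, SE 0.13, adjusted p = 7.10e-08), with 9.32 ± 0.86 CPM for 4T1.2, 13.1 ± 0.138 for 4T1, 70.9 ± 20.2 for 66cl4, and 45.9 ± 3.28 for 67NR. The cytokine genes Lif (-1.09, SE 0.10, adjusted p = 6.53e-06) and Cxcl10 (-1.04, SE 0.10, adjusted p = 8.86e-06) were also lower, Cxcl10 with libraries that overlapped. In 66cl4 against 67NR 12 target genes were higher (22.2% of all genes) and 4 lower (22.4%), and in 4T1.2 against 4T1 6 were higher (9.37%) and 5 lower (9.92%).

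**Figure D5:**
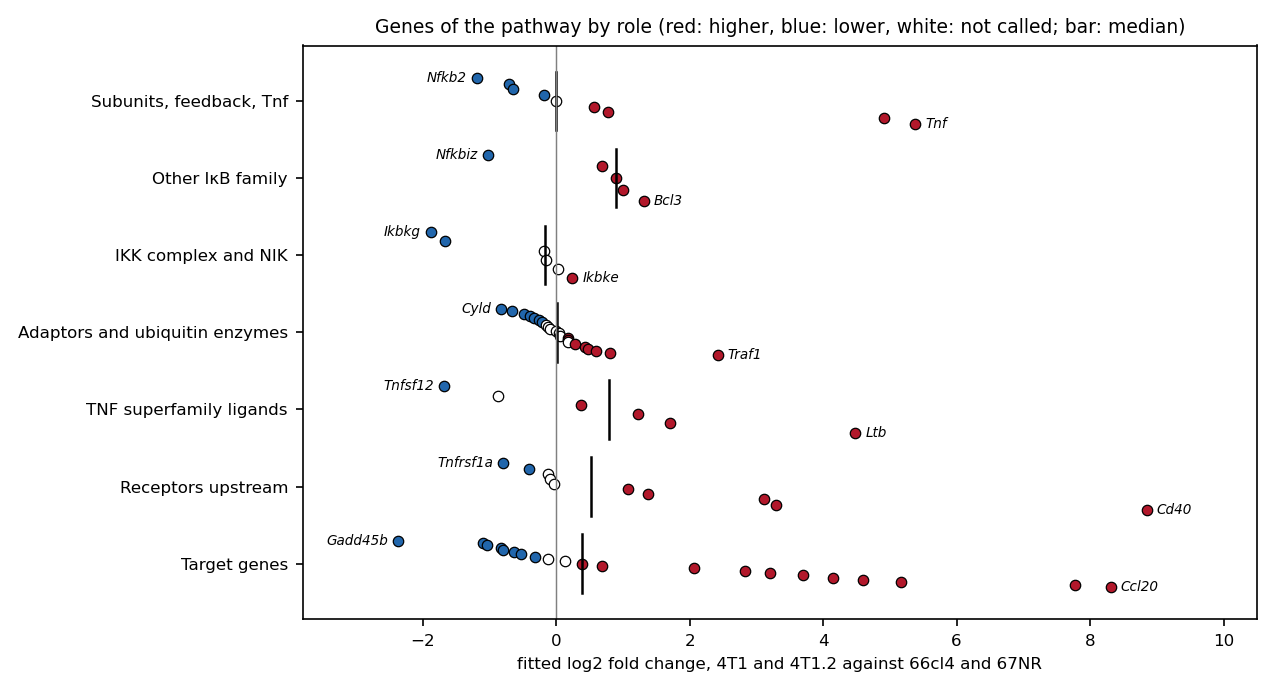
Fitted log2 fold change of 4T1 and 4T1.2 against 66cl4 and 67NR (horizontal axis) for the 9 genes and for the tested genes of 6 pathway lists, a point for each gene and a bar for the median of each list; fitted values of genes with no count in a group depend on the fit. Points lie on both sides of 0 in every row, and the medians run from -0.16 for the kinases to 0.90 for the IκB family.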

How the data were processed

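RNA-seq was made by the authors from RNA of 4 cultured lines with the TruSeq RNA v2 protocol, 2 libraries a line, and the labels give the line of each. Per the labels, reads were counted on mm10 with featureCounts, and the study's methods name Rsubread for alignment; the strand setting is not given in the sources used here. The deposited values are raw counts per Entrez gene without normalization, and the deposited gene length (a unit of its own, bases of counted exon) was used for RPKM only. Library files matched the matrix in all 8 cases. Of 27179 identifiers, 93.0% matched a gene table of GRCm38. After filterByExpr (15269 genes), unmatched, predicted and ribosomal genes were removed, which left 13926. Counts were scaled by TMM and tested with edgeR 4.0.16 (R 4.3.3, limma 3.58.1) by the quasi-likelihood F-test, legacy fit, with a mean for each line (4 residual degrees of freedom) and Benjamini-Hochberg adjustment at 0.05. The statistical scripts were tested on simulated data. Likeness used log2 CPM with a prior count of 2. Replicate libraries differed by more than sampling noise. Totals of 37159840 to 66269681 counts set the precision, and a floor of 3 counts was used for fold bounds; intervals cover counting error only.

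The members and lists were chosen with earlier results of these data known. Named from the lists were all genes of lists of 6 or fewer and up to 3 called genes with the largest change each way from the others. Birc2 and Lta were named as neighbours after their values were seen. Alternatives were DESeq2's size factors, 2 other filters, no removal by annotation, edgeR's newer fit, DESeq2 1.42.0, limma-voom, a replicate block and leaving out each library.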

Additional observations from a re-analysis of the deposited data

How the results depend on the processing

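Over 994 values of the 9 genes under the alternatives, 955 kept their side of the threshold, 28 lost the call and 11 gained it. Where either value was called, 0 changed direction. Values not called could change sign and still count among the 955, as for Nfkb1 in 4T1.2 against 4T1 (-0.07, and 0.09 without 4T1 replicate 1). The calls lost or gained are given beside each gene. The count of members called in 4T1.2 against 4T1 was 5, and ran from 2 to 4 when 1 library was left out. Over the same omissions the count ran from 7 to 8 in the pooled comparison (8 with all libraries), and that of the kinase list from 2 to 5 (3 with all). The ligand list fell from 5 called to 2 where at least 10 counts were required in every library, since only 2 of its genes were then tested, and to 3 with DESeq2's Wald test, the cause of which was not tested. Birc3 and Tnf were not tested under that stricter filter. Leaving out a library left a line with a single one, assumed to vary like the others. The libraries were not treated as paired by replicate number. Correlations of deviations between same-numbered libraries ran from -0.123 to 0.27, the highest for 4T1.2 with 4T1. A batch shared by 4T1.2 and 4T1 was not tested. With the replicate number as a block, 8 members were called in the pooled comparison, 5 in 4T1.2 against 4T1 and 4 in 66cl4 against 67NR, where Rel was added (adjusted p = 0.0369). The depth limits Tnf, Ltb and the 66cl4 level of Birc3, each on 10 or fewer counts in some lines.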
